A study of Homo sapiens with 2 samples.

Results

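The nuclear-encoded genes of the mitochondrial respiratory chain and ATP synthase were compared between vehicle-treated and (R)-9b-treated C4-2B cells. They were taken by name, as protein-coding genes whose symbol begins with NDUF, UQCR, ATP5 or COX followed by a digit, together with SDHA, SDHB, SDHC and SDHD. This gave 107 of the 60671 genes in the count table. C4-2B is an established human castration-resistant prostate cancer cell line, and (R)-9b is a small-molecule inhibitor of the tyrosine kinase ACK1. There was 1 poly-A RNA library from vehicle-treated cells and 1 from cells given 1 µM (R)-9b overnight, both of the same line grown in serum, so no difference below has a replicate check and no p-value is given. Every interval is an exact (Clopper-Pearson) 95% interval of the ratio of the libraries and covers counting error only. In bulk RNA, fewer cells with a transcript and less of it per cell cannot be told apart.

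The respiratory chain passes electrons from NADH (complex I) and succinate (complex II) through ubiquinone, complex III and cytochrome c to oxygen at complex IV, and complexes I, III and IV pump protons across the inner mitochondrial membrane. ATP synthase uses the returning protons to make ATP. Most subunits are encoded in the nucleus and imported, a few core subunits of complexes I, III, IV and ATP synthase are encoded by mitochondrial DNA, and assembly factors help to join them without staying in the finished complex. Normal prostate luminal epithelium is known for unusual mitochondrial metabolism, in which citrate is secreted in place of being oxidised.

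The libraries held 65207444 counts for vehicle and 57653965 counts for (R)-9b. The share of mitochondrially encoded genes was 1.49% of counts with vehicle and 9.54% with (R)-9b. The counts were therefore put on a common scale with TMM, and levels are given as CPM, the counts that each gene has per 1000000 counts of its TMM-scaled library. Among counts from 1 to 20, 72.2% (vehicle) and 70.4% ((R)-9b) were even. Even counts prevail where each mate of a pair adds a count, and intervals are then narrower than the number of fragments allows. All 8 prostate luminal markers had at least 15362 counts with either treatment. Of the 8 breast epithelial markers, SCGB2A2 and ANKRD30A had 0 counts and ESR1 had 2 in each library, whereas the list summed to 11103 and 12746 counts, mostly ERBB2 with 10027 and 11623, although the labels call the cells breast cancer. The 5 immune markers summed to 19 and 33 counts with PTPRC at 0, and the 4 stromal markers to 1123 and 2023, nearly all of it COL1A1.

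Of the 107 genes, 100 had at least 10 counts over both libraries and were compared. The respiratory chain genes changed little. Their median log2 ratio of (R)-9b over vehicle was -0.02, against 0.00 for all 14791 protein-coding genes with at least 10 counts, and its sign was negative in every scaling except the upper-quartile one, which gave 0.02. Only 3 genes rose and 6 fell by the call used here, a whole interval beyond a log2 ratio of 0.32 in either direction, which is 25% higher or 20% lower. The same call took 16.6% of the protein-coding genes as higher and 16.2% as lower, against 3.0% and 6.0% of the respiratory chain genes. The point ratio lay within these limits for 79 of the 100 genes, and for 47.1% of the protein-coding genes.

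These genes are abundant, with a median of 8862 counts over both libraries against 2514 for protein-coding genes, so they were also set beside genes of similar depth. Among genes with at least 1000 counts, 2 of 91 respiratory chain genes were higher and 6 lower, against 15.3% and 17.3% of 9590 protein-coding genes. The middle 50% of log2 ratios spanned 0.31 for these 91 genes and 0.54 for the 9590. The narrow spread was shared by other housekeeping sets. Over all tested genes it was 0.36 for the 100 respiratory chain genes, 0.33 for 77 subunits of the mitochondrial ribosome (MRPL and MRPS) and 0.20 for 99 cytosolic ribosomal proteins (RPL and RPS). Intervals of 38 of the 100 genes lay wholly above a ratio of 1 and those of 40 wholly below it, beside 35.4% and 37.0% of protein-coding genes with at least 10 counts. With at least 1000 counts these were 32 and 39 of the 91 genes, beside 3683 and 4252 of the 9590.

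**Figure D1:**
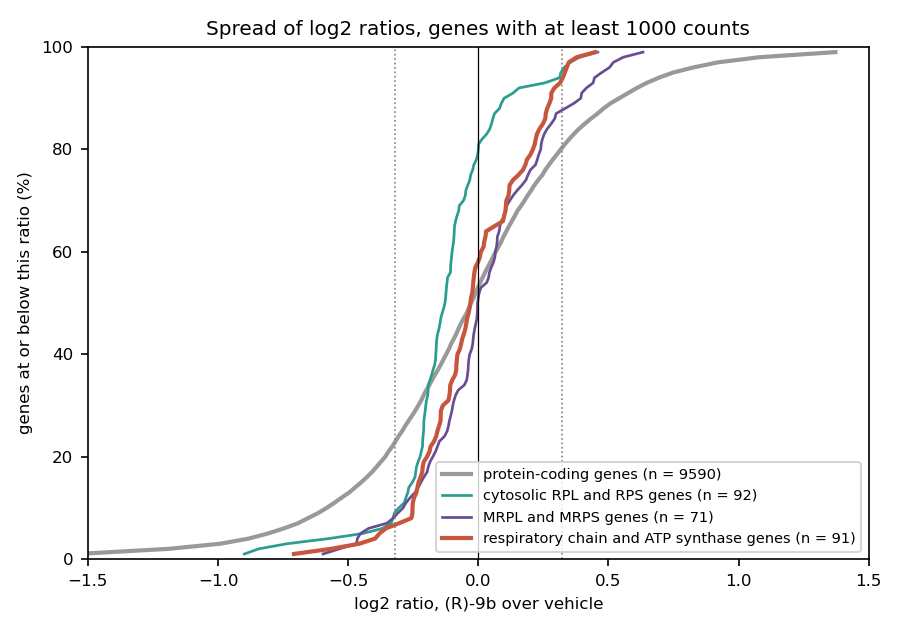
The plot shows the percentage of genes (vertical axis) at or below each log2 ratio of (R)-9b over vehicle (horizontal axis) for genes with at least 1000 counts, with dotted lines at the limits of the call. The red curve of the 91 respiratory chain and ATP synthase genes was steeper than the grey curve of the 9590 protein-coding genes, whose middle 50% spanned 0.54 against 0.31.

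**Figure D2:**
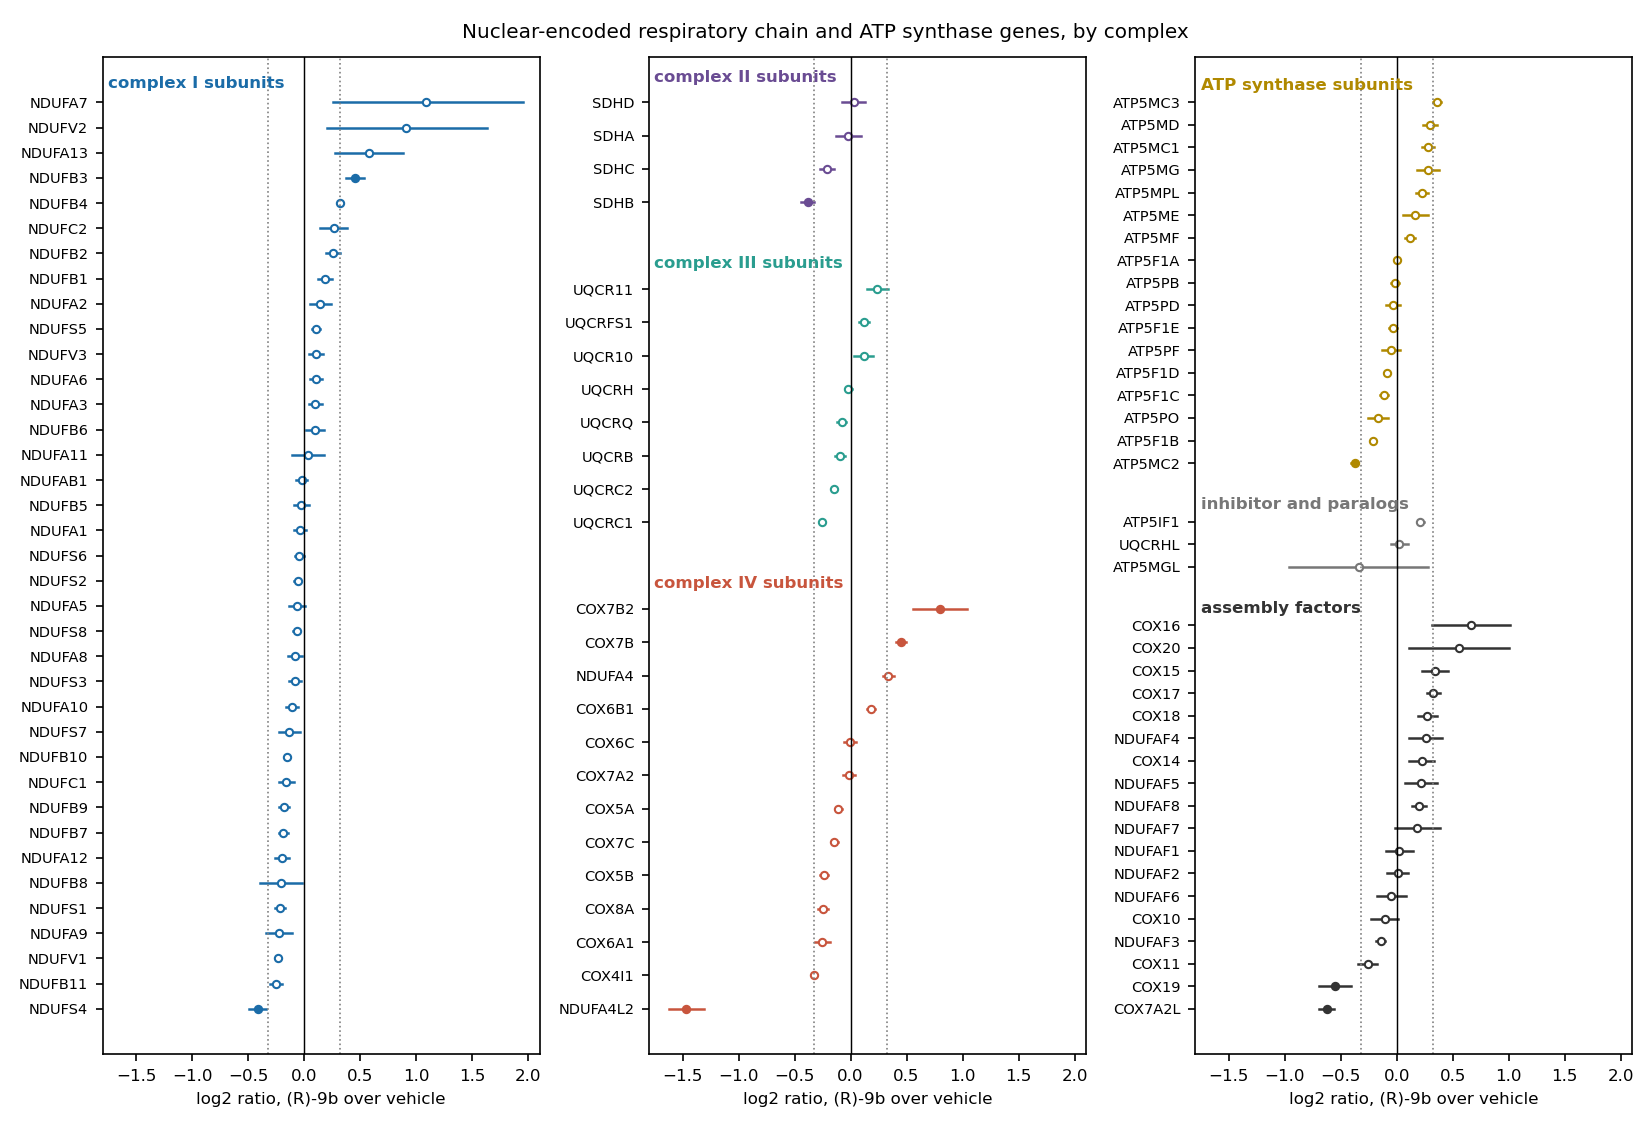
Each point is 1 gene with its log2 ratio of (R)-9b over vehicle, the bar is the 95% counting interval, the dotted lines mark the limits of the call, and filled points are genes whose whole interval lay beyond them. The 9 filled points were spread over complexes I, II and IV, ATP synthase and the assembly factors, and complex III had none.

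Complex I takes electrons from NADH. Its 37 nuclear subunits had a median log2 ratio of -0.04, with 1 higher and 1 lower, and 31 point ratios lay within the limits of the call. The 7 core subunits, which carry the flavin and the iron-sulfur clusters, had a median of -0.08. Of these, 6 had intervals wholly below a ratio of 1 and the seventh, NDUFV2, had one above it. The 30 accessory subunits had a median of -0.02.

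NDUFB3, a small accessory subunit of the membrane arm, was the complex I gene that rose. It had 2431 counts (36.5 CPM) in vehicle and 2822 counts (49.98 CPM) in (R)-9b, a log2 ratio of 0.45 with an interval of 0.37 to 0.53. The gene lies at chr2:201071433-201085750 on the plus strand (GRCh38). NDUFS4, an accessory subunit of the peripheral arm that is added late in assembly, was the one that fell. Its level went from 3845 counts (57.7 CPM) to 2443 counts (43.3 CPM), a log2 ratio of -0.42 with an interval of -0.49 to -0.34. The call of NDUFB3 was lost with scaling by total counts, and that of NDUFS4 with upper-quartile scaling, with halved counts and from the transcript estimates. NDUFB11 of the membrane arm (log2 ratio -0.25) and NDUFV1, the flavoprotein that binds NADH (-0.23), followed it in the order and did not pass the call.

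The highest point ratios of complex I rested on very few counts. NDUFA7, an accessory subunit, had 20 counts in vehicle and 36 in (R)-9b, with a log2 ratio of 1.09 and an interval of 0.26 to 1.95. NDUFV2, which carries an iron-sulfur cluster beside NDUFV1, had 29 and 46 counts and a log2 ratio of 0.90. NDUFA13, also known as GRIM-19, had 167 and 211 counts and a log2 ratio of 0.58. None of the 3 passed the call. For these genes the transcript table, a second reading of the same libraries described below, held many more estimated counts and gave log2 ratios of -0.06 for NDUFA7, 0.50 for NDUFV2 and 0.00 for NDUFA13.

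Complex II, succinate dehydrogenase, is encoded wholly in the nucleus and also serves the citric acid cycle. SDHB, its iron-sulfur protein, fell from 6624 counts (99.5 CPM) to 4306 counts (76.3 CPM), a log2 ratio of -0.38 with an interval of -0.44 to -0.33. It lies at chr1:17018722-17054170 on the minus strand, and its call was lost with upper-quartile scaling, with halved counts and from the transcript estimates. The membrane anchor SDHC had 5239 and 3838 counts and a log2 ratio of -0.21, with an interval below a ratio of 1 that did not pass the call. The other membrane anchor, SDHD, had 1695 and 1467 counts with a log2 ratio of 0.03, and the flavoprotein SDHA had 1482 and 1239 with -0.02, and both intervals included 0. Thus 1 of the 4 subunits passed the call. SDHA was the exception between tables, since its transcript estimates gave -0.36, and 3 SDHA pseudogenes held 996 counts in vehicle and 1232 in (R)-9b.

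Complex III, the cytochrome bc1 complex, passes electrons from ubiquinol to cytochrome c. None of its 8 subunits in the set passed the call, and all 8 point ratios lay within its limits, around a median of -0.05. The core proteins UQCRC1 (27739 and 19736 counts, log2 ratio -0.25) and UQCRC2 (22244 and 17054, -0.15) had intervals below a ratio of 1. UQCRB, which takes part in ubiquinone binding, had -0.09. UQCRFS1, the Rieske iron-sulfur protein, had 8286 and 7632 counts and a log2 ratio of 0.12, with an interval above a ratio of 1. The small subunits UQCR10 and UQCR11 had 0.12 and 0.24, also with intervals above a ratio of 1. From the transcript estimates UQCR10 had 0.26 and UQCR11 0.10, with 1.76 and 1.84 estimated counts per gene count. UQCRH, the hinge protein, had 15710 and 13150 counts with -0.02, and its intronless paralog UQCRHL 3086 and 2656 with 0.02. The electron carriers outside the name rule were flat as well, with log2 ratios of -0.01 for CYC1, the cytochrome c1 of complex III, and 0.09 for CYCS, cytochrome c.

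Complex IV, cytochrome c oxidase, had the widest spread of ratios among the complexes, with a middle 50% spanning 0.43. Of its 18 nuclear genes 13 were compared, with a median log2 ratio of -0.11. Of these 13, 2 were higher (15.4%) and 1 lower (7.69%), beside 16.6% and 16.2% of protein-coding genes. NDUFA4L2 had the lowest ratio of all 100 genes. It went from 1416 counts (21.3 CPM) to 435 counts (7.70 CPM), so that its level in (R)-9b was 0.362 times that in vehicle, with a log2 ratio of -1.46 and an interval of -1.62 to -1.31. NDUFA4L2, at chr12:57234903-57240715 on the minus strand, is a hypoxia-inducible paralog of NDUFA4, a subunit first assigned to complex I and now placed in complex IV. NDUFA4 itself had 6894 counts (103.5 CPM) and 7391 counts (130.9 CPM) and a log2 ratio of 0.34, whose interval of 0.29 to 0.39 fell short of the call. NDUFA4L2 therefore made up 17.0% of the counts of the pair in vehicle (interval 16.2% to 17.9%) and 5.56% in (R)-9b (5.06% to 6.09%).

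COX7B, a small subunit of complex IV, rose from 8152 counts (122.4 CPM) to 9436 counts (167.1 CPM), a log2 ratio of 0.45 with an interval of 0.41 to 0.49. Its paralog COX7B2, best known from testis, was far less abundant and rose from 246 counts (3.69 CPM) to 363 counts (6.43 CPM), a log2 ratio of 0.80 with an interval of 0.56 to 1.04. COX7B2 held 2.93% of the counts of the pair in vehicle (interval 2.58% to 3.31%) and 3.70% in (R)-9b (3.34% to 4.10%), and these intervals would be wider if fragments had been counted. Other ubiquitous subunits had lower values in (R)-9b that did not pass the call. COX4I1, the largest nuclear subunit, had 30363 and 20568 counts and a log2 ratio of -0.32, with an interval of -0.35 to -0.30 that straddled the limit of -0.32. COX6A1 had -0.25 and COX8A -0.25, whereas COX6B1, which faces the intermembrane space, had 0.18 and COX7A2 had -0.01.

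The tissue-restricted alternatives of complex IV were almost silent. COX4I2, a lung and hypoxia isoform, and COX6A2, the heart and skeletal muscle isoform, had 0 counts in both libraries, which at these depths allows a level of up to 0.0451 CPM with vehicle and up to 0.0531 CPM with (R)-9b. COX6B2, a testis isoform, had 1 and 0 counts, COX7A1, the muscle isoform, 0 and 2, and COX8C 6 and 2. These 5 genes and the readthrough genes ATP5MF-PTCD1 and NDUFC2-KCTD14, both at 0, are the 7 that were not compared.

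**Figure D3:**
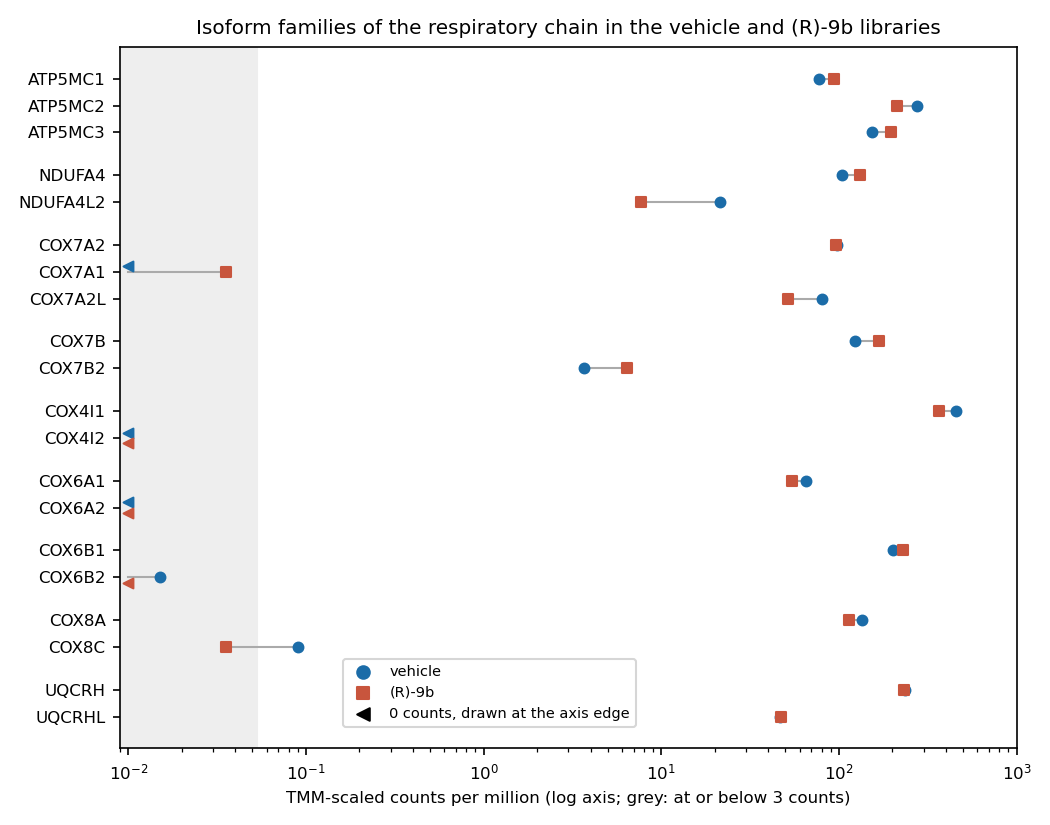
Levels of paralogous subunits in TMM-scaled CPM on a log axis, with vehicle as blue circles, (R)-9b as red squares, triangles at the edge for 0 counts and grey shading at or below 3 counts. In most families 1 form dominated in both libraries, and NDUFA4L2 fell from 21.3 to 7.70 CPM. By CPM, which is not corrected for gene length, ATP5MC2 lay above ATP5MC3 and ATP5MC3 above ATP5MC1 in both libraries. The distance between ATP5MC2 and ATP5MC3 narrowed, and per kilobase of exon ATP5MC1 lay above ATP5MC3.

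ATP synthase had 17 subunits in the set, with a median log2 ratio of -0.02 and 15 point ratios within the limits of the call. The median was 0.02 with upper-quartile scaling and 0.01 from transcript estimates. Its parts differed in level and in ratio. The 5 genes of the F1 part, which holds the catalytic sites and the central stalk, had a median of -0.08 and a highest value of 0.01. ATP5F1B, the catalytic beta subunit, had 126606 counts (1902 CPM) and 92523 counts (1639 CPM), with a log2 ratio of -0.21 and an interval of -0.23 to -0.20. The 4 genes of the peripheral stalk ran from -0.16 for ATP5PO, the oligomycin sensitivity-conferring protein, to -0.02, and 3 of their intervals included 0.

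The 5 small subunits of the membrane part, ATP5ME, ATP5MF, ATP5MG, ATP5MD and ATP5MPL, had log2 ratios from 0.12 to 0.30 with a median of 0.23, and all 5 intervals lay above a ratio of 1. None passed the call. Scaling with total counts lowered every log2 ratio by 0.0602, which was smaller than the lowest of them. The interval of ATP5ME began at 0.0568, however, so with that scaling it included a ratio of 1. From the transcript estimates ATP5MG had only 0.06, against 0.28 by gene counts, with 2.51 estimated counts per gene count. The others had 0.13 to 0.28 from these estimates. ATP5MD, which takes part in dimer formation of the enzyme, had the highest value, with 3939 counts (59.2 CPM) and 4099 counts (72.6 CPM). ATP5IF1, the inhibitor that blocks ATP hydrolysis by the enzyme, had 17208 and 16875 counts and a log2 ratio of 0.21. ATP5MGL, a paralog of ATP5MG, had 58 and 39 counts and an interval of -0.96 to 0.28 that included 0.

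The c-ring, the rotor through which protons pass, is built from a subunit that 3 genes encode with the same mature protein and different import sequences. These 3 genes did not move together. ATP5MC2, the most abundant, fell from 18327 counts (275.3 CPM) to 11978 counts (212.1 CPM), a log2 ratio of -0.38 with an interval of -0.41 to -0.34, a call lost with upper-quartile scaling. ATP5MC1 had 5144 and 5298 counts and a log2 ratio of 0.28, and ATP5MC3 had 10243 and 11146 with 0.36. Neither passed the call, although the interval of ATP5MC3, 0.32 to 0.40, began just short of the limit. ATP5MC2 accounted for 54.4% of the counts of the 3 genes in vehicle and 42.1% in (R)-9b, ATP5MC3 for 30.4% and 39.2%, and ATP5MC1 for 15.3% and 18.6%. These shares are not corrected for gene length. Per kilobase of exon, ATP5MC2 was highest (69.0 CPM with vehicle and 53.2 with (R)-9b). By that measure ATP5MC1 (29.5 and 35.9) lay above ATP5MC3 (22.7 and 29.1). Over all 3 genes the summed counts had a log2 ratio of -0.01.

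The assembly factors in the set, 18 genes named NDUFAF or COX with the supercomplex factor COX7A2L, had a median log2 ratio of 0.19, against -0.03 for the 79 compared subunits, a difference of -0.23 that no scaling can change. Assembly factors were also less abundant, with a median of 2417 counts against 11132. Among genes with at least 1000 counts the medians were 0.02 and -0.04, a difference of -0.06. The 47 assembly factors that the name rule leaves out had a median of 0.06. The higher median of the 18 thus came with lower counts, and the part that abundance has in it was not tested.

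The assembly factors that passed the call were both lower. COX7A2L, a paralog of COX7A2 that tethers complex III to complex IV in supercomplexes, fell from 5328 counts (80.0 CPM) to 2931 counts (51.9 CPM), a log2 ratio of -0.62 with an interval of -0.69 to -0.56. It lies at chr2:42333546-42425088 on the minus strand. COX7A2, the subunit it resembles, had 6498 counts (97.6 CPM) and 5456 counts (96.6 CPM). COX19, which takes part in copper delivery to complex IV, fell from 1139 counts (17.1 CPM) to 659 counts (11.7 CPM), a log2 ratio of -0.55 with an interval of -0.69 to -0.41, and was not called from the transcript estimates. COX11, which passes copper to the catalytic core, had 2822 and 2001 counts and a log2 ratio of -0.26.

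Other complex IV factors lay above a ratio of 1 without passing the call. COX15, an enzyme of heme A synthesis, had 1187 and 1276 counts and a log2 ratio of 0.34 (interval 0.23 to 0.46). COX16 had 122 and 164 counts and a log2 ratio of 0.66, with an interval of 0.32 to 1.01 that began just short of the limit. COX20, which assists the COX2 subunit, had 78 and 97 counts and a log2 ratio of 0.55. The 9 complex IV factors had a median of 0.27, and the 8 complex I factors had 0.10, with all 8 point ratios within the limits of the call.

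Outside the name rule, 6 of the 47 further assembly factors were higher (12.8%) and 2 lower (4.26%). Of the protein-coding genes, 16.6% were higher and 16.2% lower, shares that also stand beside the carriers and enzymes below. CMC2 (log2 ratio 0.69), UQCC6 (0.61), TMEM70 (0.45), BCS1L (0.42) and COA4 (0.39) rose, as did SCO2 from 29 to 56 counts (1.19). TMEM70 serves ATP synthase, BCS1L inserts the Rieske protein into complex III, and SCO2 and COA4 serve complex IV. SDHAF4, which assists complex II, fell with a log2 ratio of -0.55, and ECSIT, a complex I factor, fell with -0.41. Of the 4 carriers that exchange ADP, ATP and phosphate, SLC25A5 (43671 and 24429 counts, log2 ratio -0.60) and SLC25A6 (101296 and 63326, -0.44) fell, and SLC25A3 and SLC25A4 had -0.17 and 0.15. Among the 7 compared enzymes that feed electrons to ubiquinone, CHDH rose (0.60) and GPD2 fell (-0.39).

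**Figure D4:**
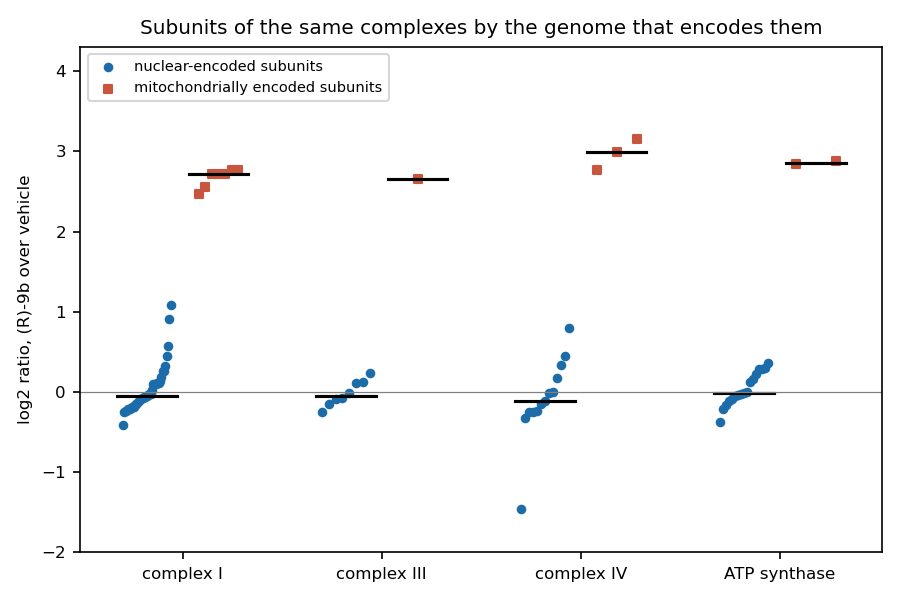
Log2 ratios of (R)-9b over vehicle for subunits of the same complexes, as blue circles for nuclear genes and red squares for mitochondrially encoded genes, with bars at the medians. All 13 mitochondrially encoded genes lay between 2.47 and 3.16, whereas the nuclear medians lay between -0.11 and -0.02.

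The subunits that mitochondrial DNA encodes for the same complexes stood apart from the nuclear ones. All 13 rose, with log2 ratios of 2.47 to 3.16 and a median of 2.76. In complex I the 7 mitochondrial genes had a median of 2.71 against -0.04 for the nuclear subunits. In complex IV the 3 had 2.99 against -0.11, in ATP synthase the 2 had 2.86 against -0.02, and MT-CYB, the 1 gene of complex III, had 2.65 against -0.05. The summed counts of the nuclear subunits, with complex II included, were 827041 in vehicle and 666569 in (R)-9b, a log2 ratio of -0.07. Those of the 13 mitochondrial genes, 699334 and 4208737, had 2.83. With the mitochondrially encoded genes left out of the scaling, the median of the 100 compared nuclear genes, assembly factors included, stayed at -0.02 and none of them changed sign.

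Expression of nuclear respiratory genes is known to be driven by the transcription factors NRF1, GABP, YY1, SP1 and the ERR receptors, with the coactivator PGC-1α (PPARGC1A). Of 16 regulators of mitochondrial biogenesis on the list, 4 fell and none rose, beside the 16.2% and 16.6% of protein-coding genes given above. NRF1 had 2389 counts with vehicle and 681 with (R)-9b and fell with a log2 ratio of -1.57 (interval -1.698 to -1.45). PPARGC1A had 103 and 27 counts (log2 ratio -1.69, interval -2.36 to -1.07), and the GABP subunits GABPB1 and GABPB2 fell with -0.52 and -0.62. YY1 and GABPA both had -0.35 without passing the call. ESRRG (62 and 27 counts, -0.96), TFB1M (-0.49) and TFB2M (-0.17) also had intervals below a ratio of 1 that did not pass it. Of the 16 intervals, 9 lay wholly below a ratio of 1 and 3 wholly above it, beside 37.0% and 35.4% of protein-coding genes. ESRRA (0.23) and TFAM (0.04), which encode ERR alpha and the mitochondrial DNA packaging factor, were not among those that fell.

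Promoter sequence was available for 88 of the 107 genes, as 111 RefSeq windows from 250 bases before to 50 after a start site (GRCh38.p14). The NRF1 core GCATGCGC stood, on either strand, in 18.02% of these windows, against 3.05% of all 35116 windows and 4.37% of the 17335 windows of compared protein-coding genes. The ETS motif CCGGAAG, which GABP binds, stood in 27.0% (15.3% of the windows of protein-coding genes) and the YY1 motif AAGATGGC in 14.4% (4.26%). The SP1 motif GGGGCGGGG was in 16.2% (23.9%) and the ERR motif TCAAGGTCA in 0.901% (0.208%). These are matches of letters and not measured sites.

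The 18 genes with the NRF1 core had a median log2 ratio of -0.05, from -0.38 to 0.33, and the 66 compared genes without it had -0.02. The 14 genes with the YY1 motif had a median of -0.12 and the 70 without it 0.01. For the ETS motif the medians were -0.019 in 27 genes with it and -0.016 in 57 without it. For SP1 they were -0.039 in 16 genes and -0.015 in 68, and the ERR motif was in 1 compared gene, at 0.03. Genes with the NRF1 core had values on both sides of 0. The 3 lowest and the 3 highest of those with at least 1000 counts are listed below as examples, picked by their values. For each, the 30 bases around the core are given on the gene's strand, with capitals for the core or, where it also occurs overlapped on the other strand, for the joined run.
SDHB (log2 ratio -0.38, chr1:17054214-17054243, minus strand): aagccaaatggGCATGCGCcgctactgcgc
ATP5MC2 (-0.38, chr12:53676105-53676134, minus strand): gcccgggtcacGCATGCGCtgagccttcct
COX6A1 (-0.25, chr12:120437884-120437913, plus strand): ggagggcacacGCATGCGCacgaaggaaac
COX18 (0.27, chr4:73069745-73069774, minus strand): tgcaggcaggcGCGCATGCGCtttatgccc
NDUFB4 (0.32, chr3:120596166-120596195, plus strand): aagagcacttcGCGCATGCGCatatcaccg
COX17 (0.33, chr3:119677504-119677533, minus strand): cgggcctccttGCGCATGCGCtgaaggggg
NDUFB4, an accessory subunit of the complex I membrane arm, had 22122 and 23459 counts, COX17, a copper chaperone of complex IV, 4411 and 4690, and COX18, which inserts the COX2 subunit into the membrane, 2263 and 2318. None of these 3 passed the call.

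Levels per length were compared as TMM-scaled CPM per kilobase of exon. ATP5F1B had the highest level in both libraries, 818.9 in vehicle and 705.7 in (R)-9b, while the median of the 100 genes was 29.6 and 30.4. By class, the median levels were 50.02 and 48.5 for complex III, 50.8 and 55.3 for complex IV, 42.5 and 41.5 for ATP synthase, 29.8 and 29.8 for complex I, 7.26 and 6.98 for complex II and 5.58 and 5.69 for the assembly factors. In complex I the levels ran from 0.161 for NDUFV2 to 398.1 for NDUFB10 in vehicle, although each nuclear subunit is part of the same complex. The order of the 100 levels was nearly the same in the libraries (Spearman rho 0.992 across genes, which are not independent).

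Some of the lowest levels belong to genes that the gene table counts sparsely. The deposited transcript table estimates counts per transcript, and a typical respiratory chain gene had 0.355 estimated counts per gene count, close to 0.362 for protein-coding genes with at least 1000 counts. For 7 genes the estimate exceeded 3 per gene count. It was 98.4 for NDUFA7, 26.2 for NDUFA13, 16.1 for COX20, 7.96 for NDUFV2, 3.64 for NDUFA11, 3.27 for NDUFB8 and 3.09 for COX16. Reads that fall on more than 1 gene were left out of the gene counts. The exons of 32 of the 107 genes overlap another gene on the same strand. This overlap covered 32.3% of exon bases in NDUFA7, 28.4% in NDUFV2, 21.0% in NDUFA13, 36.0% in COX16, 33.8% in NDUFB8 and 9.65% in NDUFA11. COX20 had no such overlap and 72.0% on the other strand. The pseudogene of NDUFV2 held 937 counts in vehicle and 836 in (R)-9b, more than the gene itself, and those of COX20 held 490 and 423. Pseudogenes of NDUFB8 held 99 and 80, fewer than the gene, and none was found by name for NDUFA7, NDUFA13, NDUFA11 and COX16. The part of overlap or of pseudogenes in the low counts was not tested. For COX20 the transcript estimates gave a log2 ratio of 0.03 and for COX16 0.73.

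In the other direction, 12 genes had under 0.1 estimated counts per gene count, among them NDUFS4 with 0.0133, so that their ratio in the transcript table rests on little. NDUFS4 had a log2 ratio of -0.75 there from 55.7 and 27.9 estimated counts. For the remaining 81 genes the log2 ratios of the tables had a median absolute difference of 0.033 and the same sign in 78. NDUFA4L2 had -1.40, COX7A2L -0.59, SDHB -0.38, ATP5MC2 -0.38, COX19 -0.42, COX7B 0.51, COX7B2 0.89 and NDUFB3 0.55 from the transcript estimates.

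**Figure D5:**
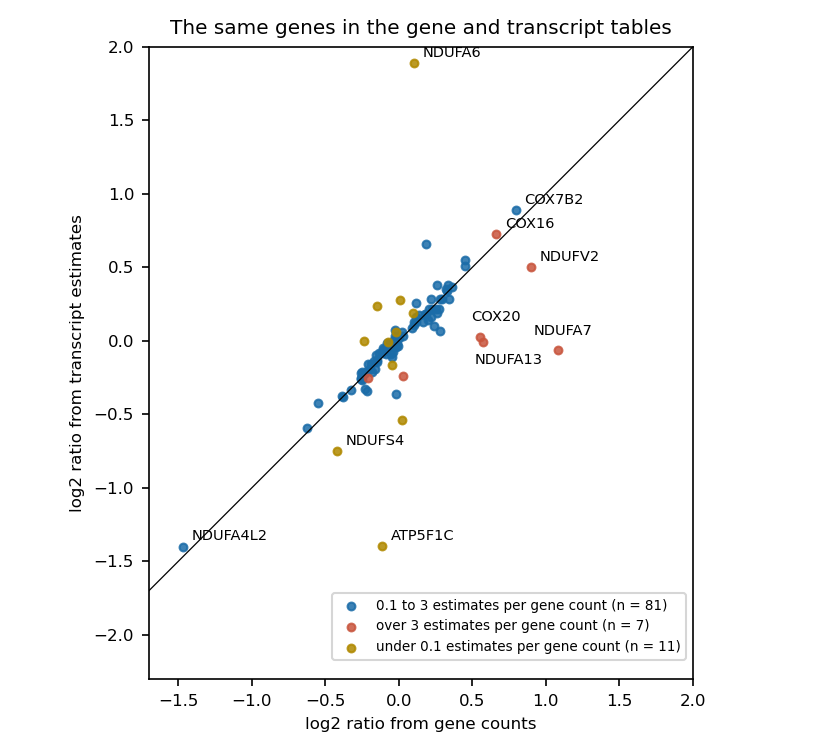
Each point is 1 gene with its log2 ratio from gene counts (horizontal axis) and from transcript estimates (vertical axis), coloured by the number of estimated counts per gene count, and the line marks equal ratios. Most of the 81 blue points lay near the line, and the red points NDUFA7, NDUFA13 and COX20 had values above 0.5 by gene counts and near 0 by transcript estimates.

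Transcript shares within a gene were compared for 93 genes with at least 100 estimated counts in each library. In 10 of them, 18 transcripts differed by at least 10 percentage points. The largest difference was in NDUFA4L2, where the protein-coding transcript NDUFA4L2-201 held 64.3% of 494.9 estimated counts in vehicle and 0% of 158.0 in (R)-9b, and NDUFA4L2-202, also protein-coding, held 13.2% and 88.1%. In COX11, a transcript marked for nonsense-mediated decay, COX11-209, held 53.6% and 37.6%. In NDUFS1, the largest core subunit of complex I, the protein-coding transcript NDUFS1-205 held 26.0% and 10.5%. Over all genes in the set, transcripts with retained introns held 3.63% of estimated counts in vehicle and 4.35% in (R)-9b, and those marked for nonsense-mediated decay 2.91% and 2.88%. The estimates carry their own uncertainty, which the table does not give.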

How the data were processed

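Poly-A RNA of C4-2B cells was sequenced as 1 library per condition. The authors mapped the paired-end reads to GRCh38 (STAR) and deposited gene counts, which are whole numbers without normalization and include only reads assigned to 1 gene. The strand setting of the counting is not given in the sources used here. The submitters' processing notes name STAR 2.5.1a, featureCounts 1.4.6-p5 and Salmon 0.8.2. The methods of the paper name a later STAR version, and which of them made the counts is not known. The deposited CPM equal the count over the library total and served as the total-count scaling. The deposited estimated counts per transcript, summed per gene, were an alternative. Moderated log2 tables were not used here.

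Repeated lines of a gene were dropped. Counts were scaled with TMM (edgeR 4.0.16, R 4.3.3), and exact (Clopper-Pearson) 95% intervals came from Python 3.11.15 with scipy 1.17.1, numpy 2.4.6 and pandas 2.3.3. With 1 library per condition, no model of replicate spread was fitted. A gene was called where its whole interval lay beyond a log2 ratio of 0.32 either way, and genes needed 10 counts over both libraries. A count of 0 was read as allowing 3 counts. The scripts were tested on simulated data. Gene positions and exon lengths are from GENCODE on GRCh38, matched by Ensembl identifier, and promoters from RefSeq. Complexes and roles were assigned from general knowledge. Alternatives were other scalings (total counts, upper quartile, DESeq2 1.42.0 size factors, TMM without mitochondrially encoded genes), minimum counts of 1 and 50, halved counts, other thresholds and the transcript estimates. Figures were drawn with matplotlib 3.10.9.

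The genes and lists were chosen with earlier results of these data known. Named genes are the 3 highest and 3 lowest of each class, all of complex II, every called gene, the isoform families and ATP5IF1. The genes of the membrane part of ATP synthase, those with few or many transcript estimates, those with differing transcript shares, NDUFB10 and those with printed promoters were named after their values were seen.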

Additional observations from a re-analysis of the deposited data

How the results depend on the processing

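With upper-quartile scaling 7 genes were higher and 3 lower, where ATP5MC3, COX16, NDUFA4 and NDUFB4 joined the higher genes and ATP5MC2, NDUFS4 and SDHB left the lower ones. Transcript estimates gave 5 higher and 4 lower. By the point ratio 13 were higher and 8 lower, by an interval beyond a ratio of 1 there were 38 and 40, and by an interval beyond 1.5-fold 0 and 1, the 1 being NDUFA4L2. With counts halved there were 3 and 4, without NDUFS4 and SDHB. Shares of protein-coding genes for the point ratio and for intervals beyond a ratio of 1 are given above. They were not computed for upper-quartile scaling, transcript estimates, the 1.5-fold limit or halved counts, so these counts of genes have no background beside them. COX7B, COX7B2, NDUFA4L2 and COX7A2L were called in every scaling, with either minimum count, with halved counts and from the transcript estimates. Scaling by total counts moved the medians of complex III to -0.11, of complex IV to -0.17 and of ATP synthase to -0.076, and the same shift put the median of all genes in the set at -0.08 and that of complex I at -0.10. Transcript estimates moved complex II to -0.26 and complex III to 0.026. The cause was not tested beyond the 0.06 on the log2 scale that total counts take from every ratio. The difference between subunits and assembly factors was between -0.228 and -0.226 under these alternatives, but -0.06 among genes with at least 1000 counts. The other 76 medians, differences and counts of genes moved by less than the median half-width of their genes' intervals, which is wider where counts are lower, or, for counts of genes, by at most 1.5 times. Of the 100 genes, 9 changed sign with upper-quartile scaling, 6 with total counts and 10 of 99 with transcript estimates, and no called gene reversed. Leaving out 19 genes whose tables differ most in level, an alternative chosen after seeing the data, gave 3 higher and 5 lower. No paired analysis was possible because each group held 1 library.

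The libraries differ in mitochondrially encoded share, and preparation, lane and treatment cannot be told apart with 1 library each. Log2 ratios also moved with GC content of the transcripts, with a Spearman rho of -0.27 over the 91 respiratory chain genes with at least 1000 counts and 0.26 over protein-coding genes of that depth, and its part in the results was not tested. Depth limits NDUFA7, NDUFV2, NDUFA13, COX16 and COX20, which had at most 211 counts in a library. Pseudogenes of 52 genes held 9426 counts in vehicle and 8724 in (R)-9b, so reads shared with near-identical copies, as for UQCRH and UQCRHL, may be split or lost.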
